A study of Rattus norvegicus with 7 samples.

Results

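Rat chromosomes 7, 9 and 19 were picked because deposited peak lists from S16 cells held many peaks on them, and all peaks on those chromosomes were taken: 46334 of the 283853 peaks in 6 lists, with 20923 on chromosome 7, 16359 on chromosome 9 and 9052 on chromosome 19. S16 is an immortalised Schwann cell line from rat, grown here without treatment, and it gave 5 lists. CUT&RUN, in which an antibody-tethered nuclease releases DNA around a bound protein, was run for the transcription factors NR2F2, YY1, RXRG and TEAD1, and ChIP-seq for the histone mark H3K27ac. The sixth list, used as the measure to which the S16 lists were set, came from ChIP-seq for SREBP1 in sciatic nerve of wild-type rats at postnatal day 15. Each target had 1 library, the nerve input library and any control library of the CUT&RUN runs were not analysed here, and read depth is unknown. The chromosomes hold 8037 NR2F2, 15748 H3K27ac, 6054 YY1, 8169 RXRG, 4422 TEAD1 and 3904 SREBP1 peaks.

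Schwann cells wrap axons of peripheral nerves in myelin. NR2F2 is an orphan nuclear receptor, RXRG a retinoid X receptor that pairs with other nuclear receptors, YY1 a zinc finger factor needed for peripheral myelination, and TEAD1 the DNA-binding partner of the co-activators YAP and TAZ. SREBP1 switches on genes of fatty acid synthesis, a large demand of a myelinating cell, and H3K27ac marks active promoters and enhancers. A nerve holds other cell types beside Schwann cells, and S16 is a single cultured line, so cell type, culture and target differ together between the S16 lists and the nerve list and cannot be told apart.

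No sequence is shown, because the peak coordinates are on rat build rn5 and no genome of that build was used here. Of 30 Schwann cell and lipid genes looked up by name in the RefSeq table of build GRCr8, 7 lie on these chromosomes. Chromosome 7 carries Sox10, a master regulator of the Schwann lineage, Erbb3, a neuregulin receptor, Nab2, a corepressor of EGR factors, Dhh, a signal from Schwann cells to the perineurium, and the growth regulator Myc. Chromosome 9 carries Nab1, a second EGR corepressor, and chromosome 19 carries Pllp, a myelin membrane protein. No peak was assigned to any of them. The share of all genes on these chromosomes was not counted, so no enrichment is read from the 7.

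The S16 lists were dense on chromosomes 7 and 9 in every target, while chromosome 19 was dense mainly per unit of length. Relative density is used throughout: the number of S16 peaks per nerve SREBP1 peak on a chromosome, divided by the same ratio over the 17 other autosomes pooled. Overlapping peaks of the 5 S16 lists were also merged into sites, of which 24108 of 141636 on all autosomes lay on chromosomes 7, 9 and 19. Those chromosomes made up 12.5% of the usable autosomal length, meaning the span from first to last peak less stretches over 1 Mb without any peak. They held 20.0% of autosomal NR2F2 peaks, 17.5% of RXRG, 17.1% of TEAD1, 16.2% of H3K27ac and 16.01% of YY1 peaks, and 13.5% of SREBP1 peaks.

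Because the chromosomes were selected on these counts, their densities are given as a description without a test. Intervals are 95% Clopper-Pearson intervals and cover counting error only. Peaks cluster and lists share sites, so the true uncertainty is wider.

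Chromosome 7 held 10851 S16 sites for 1690 SREBP1 peaks, a relative density of 1.37 (1.30 to 1.44). Chromosome 9 held 8702 sites for 1339 SREBP1 peaks, a relative density of 1.38 (1.31 to 1.47). They took the first 2 places among 20 autosomes, ahead of chromosome 13 at 1.21, chromosome 4 at 1.15 and chromosome 2 at 1.15. Chromosome 19 held 4555 sites for 875 SREBP1 peaks, a relative density of 1.11 (1.03 to 1.19), and came in place 8. The name "dense" therefore did not hold for chromosome 19 when it was set against the nerve list. Per usable Mb it ranked 4, at 1.44 times the other autosomes, but the nerve SREBP1 list was itself 1.30 times as dense there per Mb. On chromosome 7 the SREBP1 list was at 1.07 and on chromosome 9 at 1.00 times the other autosomes per Mb. By length, sites on chromosome 7 ranked 3 at 1.47 and on chromosome 9 ranked 5 at 1.39. Chromosome 10 ranked 1 at 1.59, with the SREBP1 list at 1.57 there. At the low end, autosomes 5, 8, 17 and 18 lay between 0.746 and 0.814.

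NR2F2 had the highest relative density of the 5 lists on each of the 3 chromosomes. Its relative density was 1.67 (1.57 to 1.77) on chromosome 7, 1.71 (1.60 to 1.83) on chromosome 9 and 1.31 (1.21 to 1.43) on chromosome 19, against 0.626 to 1.38 across the other autosomes. On chromosome 19 it thus lay within the range of the others, in place 7 of 20. RXRG had 1.40 on chromosome 7, 1.39 on chromosome 9 and 1.23 on chromosome 19, against at most 1.20 on any other autosome. TEAD1 had 1.39, 1.37 and 1.13 on chromosomes 7, 9 and 19, against at most 1.27 elsewhere. The histone mark and YY1 moved less: H3K27ac had 1.30, 1.29 and 1.04 on chromosomes 7, 9 and 19 against at most 1.16 elsewhere, and YY1 had 1.31, 1.17 and 1.12 against at most 1.14. Set against SREBP1 peaks, chromosomes 7 and 9 were above every other autosome in 5 of 5 lists. Per usable Mb this held for NR2F2 alone, since chromosome 10 was above both for H3K27ac, YY1, RXRG and TEAD1. Chromosome 19 was above every other autosome in 1 of 5, RXRG, although its interval lay above 1 in 4 of 5, with H3K27ac the exception at 0.963 to 1.12.

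**Figure D1:**
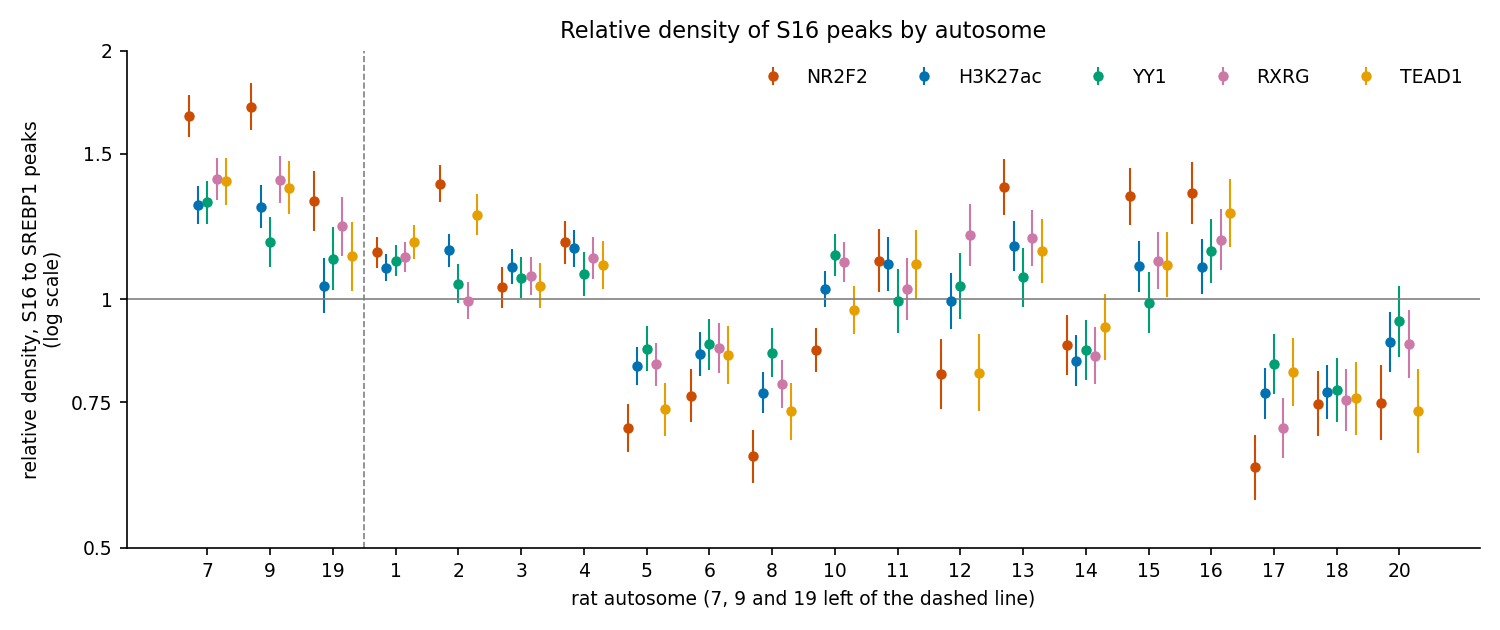
Relative density of S16 peaks (vertical axis, log scale) on each autosome for the 5 S16 lists, with chromosomes 7, 9 and 19 left of the dashed line; bars are 95% Clopper-Pearson intervals for counting error. Chromosomes 7 and 9 lie above all other autosomes in every list, with NR2F2 highest at 1.67 and 1.71, whereas chromosome 19 lies among them except for RXRG at 1.23.

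Ratios of one S16 list to another need no nerve data. NR2F2 peaks per H3K27ac peak, again relative to the 17 other autosomes, were 1.28 (1.23 to 1.33) on chromosome 7, 1.32 (1.26 to 1.38) on chromosome 9 and 1.27 (1.19 to 1.35) on chromosome 19. No other autosome exceeded 1.23. RXRG per H3K27ac peak was 1.07, 1.08 and 1.18 on chromosomes 7, 9 and 19, within the 0.869 to 1.20 of the others. TEAD1 per H3K27ac peak was 1.07, 1.06 and 1.09, within 0.819 to 1.16. YY1 per H3K27ac peak was 1.01 on chromosome 7, 0.907 on chromosome 9 and 1.08 on chromosome 19, within 0.902 to 1.12. Of these 4 ratios, that of NR2F2 alone exceeded every other autosome on all 3 chromosomes. It did not stand apart in the same way from the other factors: NR2F2 per RXRG peak was 1.19, 1.23 and 1.07 on chromosomes 7, 9 and 19, within 0.679 to 1.39 elsewhere. NR2F2 per YY1 peak was 1.27, 1.46 and 1.17, against at most 1.35 elsewhere, and NR2F2 per TEAD1 peak was 1.20, 1.254 and 1.17, against at most 1.21.

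Along the chromosomes, peaks were counted in 5 Mb bins, and a bin was used where it held at least 10 SREBP1 peaks. That left 27 of 29 bins on chromosome 7, 23 of 25 on chromosome 9 and 13 of 15 on chromosome 19, and 438 of 491 on the other autosomes. A bin was taken as dense at a relative density of at least 1.5. For S16 sites 9 bins of chromosome 7, 13 of chromosome 9 and 2 of chromosome 19 were dense, 24 of 63 (38.1%), against 51 of 438 (11.6%) on the other autosomes and 15% over all autosomes. These shares follow from how the chromosomes were chosen, and nothing further is read from them. The median bin stood at 1.32 on chromosome 7, 1.55 on chromosome 9 and 1.03 on chromosome 19, against 1.01 on the other autosomes.

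NR2F2 was dense in 31 of the 63 bins, with 25.5% of bins dense over all autosomes. RXRG was dense in 25 (16% over all autosomes) and TEAD1 in 18 (14.8%). H3K27ac was dense in 15 (10.8%) and YY1 in 13 (7.58%). All 5 lists were above 1 in 17 of 27 bins on chromosome 7 and 16 of 23 on chromosome 9, but only in 2 of 13 on chromosome 19. The share was 17.8% on the other autosomes and 22.6% over all autosomes. The 5 lists share sites and, in each bin, the SREBP1 count, so part of their agreement is built in. All 5 lists reached 1.5 in 2 bins of chromosome 7, 2 of chromosome 9 and none of the 13 of chromosome 19 (3.39% over all autosomes). The longest unbroken stretch with all 5 lists above 1 covered 6 bins on chromosome 7, chr7:40000001-70000000, and 4 bins on chromosome 9, chr9:95000001-115000000. On chromosome 19 it covered 1 bin. Chromosome 16 had a stretch of 5 bins, longer than that of chromosome 9, and chromosomes 2 and 3 had 3 bins each.

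The highest bin of all on these chromosomes was the first of chromosome 9. chr9:1-5000000 held 313 sites for 18 SREBP1 peaks, a relative density of 3.70, with NR2F2 at 8.31, RXRG at 4.18, TEAD1 at 3.89, H3K27ac at 2.99 and YY1 at 2.93. The lowest bin of chromosome 9, chr9:65000001-70000000, stood at 0.785 with 369 sites for 100 SREBP1 peaks. On chromosome 7 the highest bin, chr7:110000001-115000000, stood at 2.73 with 231 sites for 18 SREBP1 peaks. The lowest there, chr7:35000001-40000000, stood at 0.862 with 409 sites for 101 SREBP1 peaks. On chromosome 19 the highest bin, chr19:5000001-10000000, stood at 1.87 with 141 sites for 16 SREBP1 peaks, and the lowest, chr19:55000001-60000000, at 0.705 with 189 sites for 57. The highest bins thus all had few SREBP1 peaks and the lowest bins many or a middling number.

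**Figure D2:**
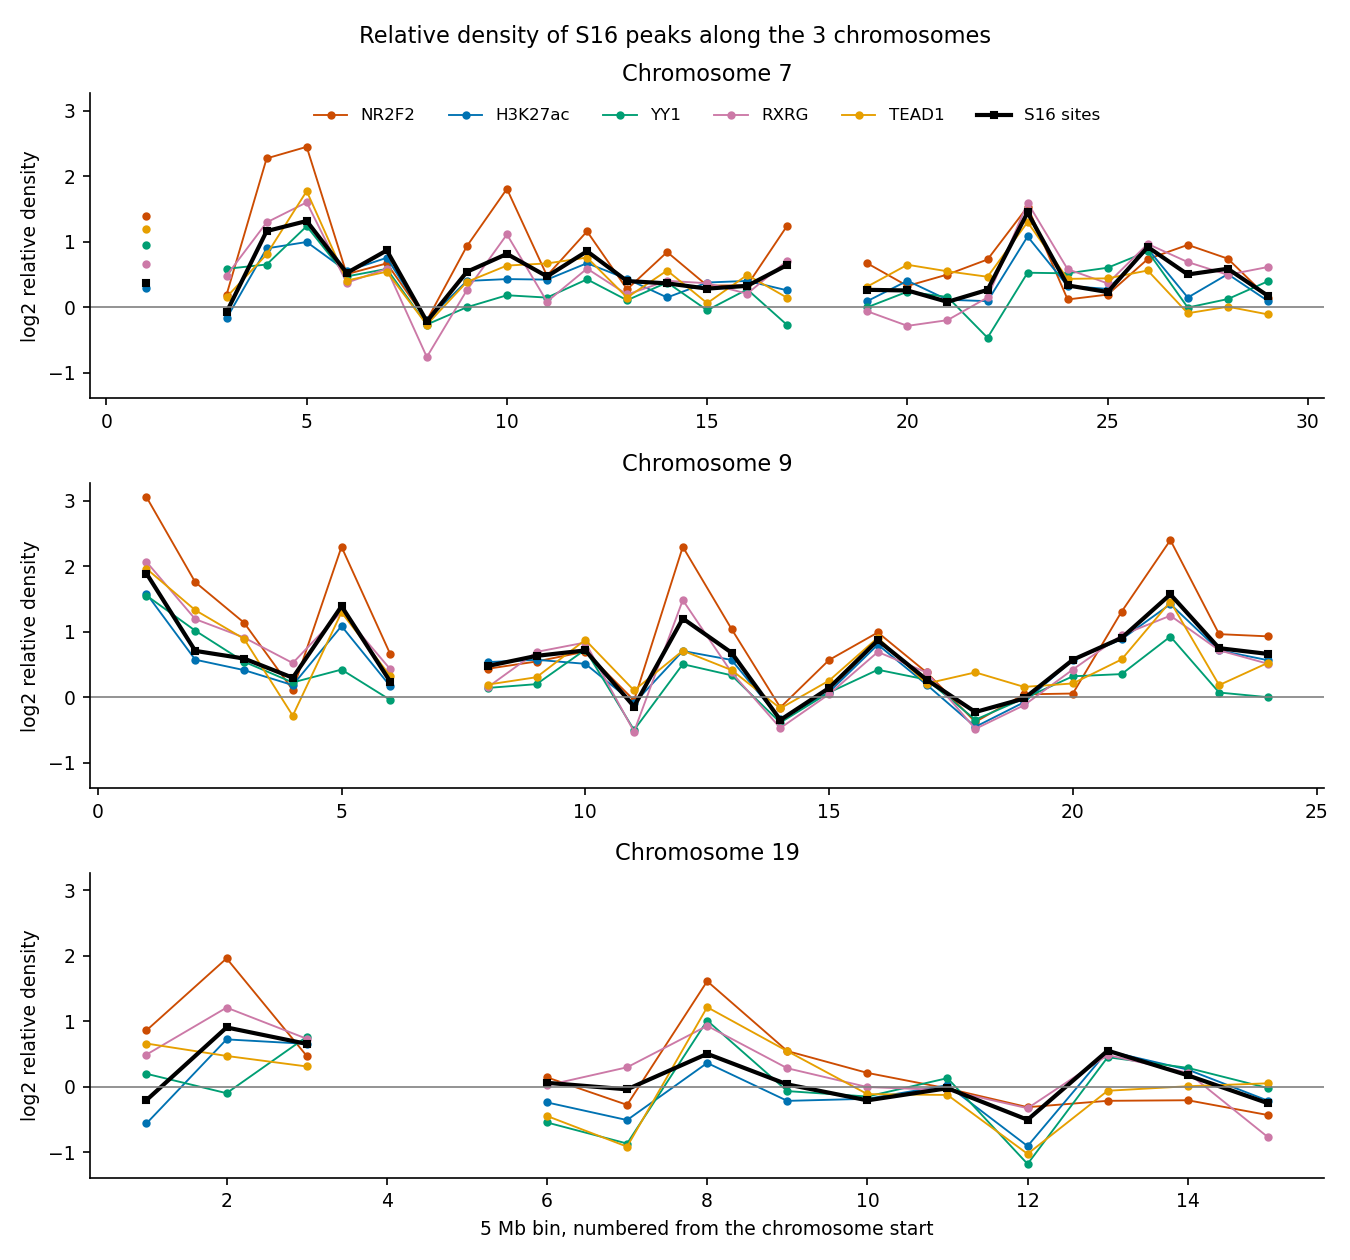
Log2 relative density (vertical axis) of the 5 S16 lists and of merged S16 sites (black) in each 5 Mb bin, in order from the start of chromosomes 7, 9 and 19; gaps are bins with under 10 SREBP1 peaks. All lists share the first peak of chromosome 9, and NR2F2 climbs above the others in single bins of each chromosome.

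Part of this is built in, since a bin with few SREBP1 peaks has a small denominator and therefore a high ratio. The classes below are cut by that same count, so the fall from class to class is no finding, and only values within a class are compared. On the other autosomes relative density of sites was 1.36 in bins with 10 to 29 SREBP1 peaks, 1.05 with 30 to 59 and 0.912 with 60 or more. In the same classes chromosome 7 had 2.09, 1.50 and 1.23, and chromosome 9 had 2.62, 1.46 and 1.23. Chromosome 19 had 1.87 from a single bin, then 0.983 and 1.11. Chromosomes 7 and 9 were above the other autosomes in each class, and chromosome 19 was not in the class of 30 to 59. In bins with 60 or more SREBP1 peaks, where the denominator is least noisy, NR2F2 stood at 1.31 on chromosome 7, 1.38 on chromosome 9 and 1.24 on chromosome 19, against 0.749 on the other autosomes. The class comparison was chosen after the values were seen. With the background weighted to each chromosome's own mix of classes, sites stood at 1.39 on chromosome 7, 1.41 on chromosome 9 and 1.15 on chromosome 19.

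**Figure D3:**
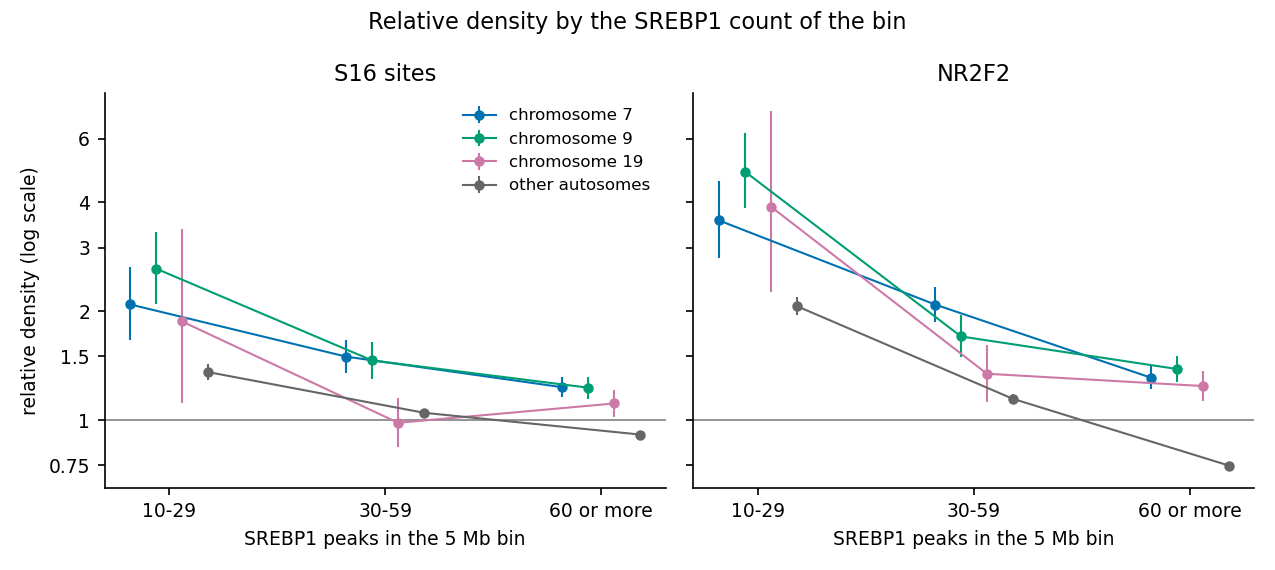
Relative density (vertical axis, log scale) of S16 sites and of NR2F2 peaks in 5 Mb bins grouped by their number of SREBP1 peaks, for chromosomes 7, 9 and 19 and the other autosomes, with 95% Clopper-Pearson intervals for counting error. All groups are highest where SREBP1 peaks are few, which a small denominator favours; chromosomes 7 and 9 stay above the other autosomes in each class.

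The best single division of the merged sites gave a step below 1.5-fold on each of the 3 chromosomes. For each, the bins were divided into a left and a right segment of at least 4 bins so that log2 relative density varied least around the segment means. On chromosome 7 the best place was chr7:35000001, with a left mean of 0.70 and a right mean of 0.46, a step (right minus left) of -0.24. On chromosome 9 it was chr9:25000001, with 0.98 on the left and 0.50 on the right, a step of -0.48. A second division within its right segment, at chr9:100000001, had a step of +0.61, which is past 1.5-fold. On chromosome 19 the best place was chr19:40000001, with 0.32 on the left and -0.03 on the right, a step of -0.35. Relative density in the single bins left and right of the best place was 1.83 and 0.862 on chromosome 7. It was 2.62 and 1.18 on chromosome 9, and 1.42 and 1.03 on chromosome 19. None of the 3 best divisions reached 1.5-fold in segment means. Of the 20 autosomes 1 (5%) did, chromosome 18. The steps were not stable: counted per Mb in place of per SREBP1 peak, the largest was +0.86 at chr7:115000001, -0.65 at chr9:20000001 and +0.62 at chr19:35000001, each past 1.5-fold and turned in direction on chromosomes 7 and 19.

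NR2F2 alone gave larger steps, each with the higher segment at the chromosome start. Its step was -0.92 at chr7:25000001, -0.96 at chr9:25000001 and -0.92 at chr19:45000001. RXRG and TEAD1 divided at the same 3 places. RXRG stepped by -0.61, -0.79 and -0.64 on chromosomes 7, 9 and 19, and TEAD1 by -0.58, -0.62 and -0.48. YY1 stepped by -0.56 at chr7:35000001, -0.64 at chr9:20000001 and -0.16 at chr19:40000001. H3K27ac went its own way, with -0.20 at chr7:35000001, +0.50 at chr9:100000001 and -0.24 at chr19:30000001. NR2F2 also had a second division at chr9:100000001, within its right segment, from a mean of 0.51 up to 1.40. Large NR2F2 steps were not particular to these chromosomes, since 11 of 20 autosomes had one of at least 1.5-fold. For RXRG 8 did, for TEAD1 3, for YY1 2 and for H3K27ac 0 of 20.

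Dividing the counted bins of each chromosome into 3 runs shows what the steps average over. On chromosome 7 NR2F2 stood at 2.01 in the first stretch (chr7:1-50000000), 1.44 in the middle and 1.41 in the last, while sites stood at 1.36, 1.30 and 1.35. On chromosome 9 NR2F2 stood at 2.31, 1.44 and 1.47, and sites at 1.54, 1.26 and 1.36. On chromosome 19 NR2F2 stood at 1.66, 1.75 and 0.862, so that its last stretch, chr19:50000001-75000000, was below the other autosomes. YY1 was nearly level there at 1.06, 1.19 and 1.08, and H3K27ac at 1.03, 0.968 and 1.07.

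A closer look at 1 Mb windows, chosen after these values were seen, showed single places crowded with NR2F2 peaks. Of 2630 windows with any peak, 328 (12.5%) lie on chromosomes 7, 9 and 19. The median window held 13 NR2F2 peaks, and 27 windows (1.03%) were at or above the 99th percentile of 58.7. Of those 27, 15 lay on these chromosomes, 7 on chromosome 7, 4 on chromosome 9 and 4 on chromosome 19. Among the windows of these chromosomes 4.57% were in this top class, against 0.521% on the other autosomes, where 6 chromosomes supplied the rest. H3K27ac had 15 of its 28 top windows there (1.06% of all windows in the class), and TEAD1 14, RXRG 13 and YY1 9 of 27 each (1.03%). As with the dense bins, these shares follow from how the chromosomes were chosen, and nothing further is read from them.

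The most crowded NR2F2 megabase of all autosomes was chr9:7000001-8000000, with 128 NR2F2, 74 H3K27ac, 72 RXRG, 66 TEAD1 and 62 YY1 peaks and 11 SREBP1 peaks. It was a top window in 4 of 5 lists, H3K27ac being the exception. The window before it held 33 NR2F2 peaks and the window after it 50. A further pair of the chromosome 9 windows were close by, chr9:3000001-4000000 with 95 NR2F2 peaks and chr9:11000001-12000000 with 91. The fourth, chr9:113000001-114000000, held 60.

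On chromosome 19, 3 adjoining windows stood out. chr19:37000001-38000000 held 112 NR2F2 peaks, chr19:38000001-39000000 held 83 and chr19:39000001-40000000 held 112, next to 42 in the window before and 51 in the window after. H3K27ac had 82, 70 and 67 peaks in the 3 windows, below its 124 in the window before. SREBP1 had 24, 6 and 10. The 5 Mb bin around them, chr19:35000001-40000000, stood at 3.06 for NR2F2, 2.32 for TEAD1, 2.02 for YY1 and 1.91 for RXRG, but at 1.29 for H3K27ac. The fourth top window was the first of the chromosome, chr19:1-1000000, with 85 NR2F2 peaks, next to 3 in the window after it.

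On chromosome 7, chr7:20000001-21000000 held 103 NR2F2, 69 H3K27ac, 51 RXRG, 31 YY1 and 27 TEAD1 peaks and 0 SREBP1 peaks. The windows on either side, with 59 and 41 NR2F2 peaks, also had 0 SREBP1 peaks. The first window of the chromosome held 83 NR2F2 peaks and chr7:2000001-3000000 held 68. The window chr7:120000001-121000000 was the only one of the 27 in the top class of all 5 lists, with 121 H3K27ac, 75 YY1, 75 RXRG, 62 NR2F2 and 48 TEAD1 peaks and 42 SREBP1 peaks. A stretch where the nerve list is empty was also seen at chr7:85000001-90000000, which had 100 S16 sites and 0 SREBP1 peaks and was not counted among the bins.

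The top windows were picked for high counts, so leaving them out favours a fall in density, and only the size of the change is described. A rise is also possible, because SREBP1 peaks in those windows and the top windows of the other autosomes were left out too. For NR2F2 the value of chromosome 19 fell close to the other autosomes, while those of chromosomes 7 and 9 stayed above. The windows held 26.5% of NR2F2 peaks on chromosome 19, 14.1% on chromosome 7 and 12.7% on chromosome 9. Without each list's own top windows on all autosomes, NR2F2 relative density was 1.57 (1.47 to 1.67) on chromosome 7, 1.59 (1.49 to 1.70) on chromosome 9 and 1.07 (0.973 to 1.17) on chromosome 19. TEAD1 on chromosome 19 then stood at 0.942 (0.848 to 1.05), against 1.13 with them. RXRG on chromosome 19 stood at 1.19 (1.09 to 1.29) without its top windows. For merged sites the values without theirs were 1.41, 1.40 and 1.10 on chromosomes 7, 9 and 19. The whole chromosomes had 1.37, 1.38 and 1.11, so the values of chromosomes 7 and 9 rose slightly.

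**Figure D4:**
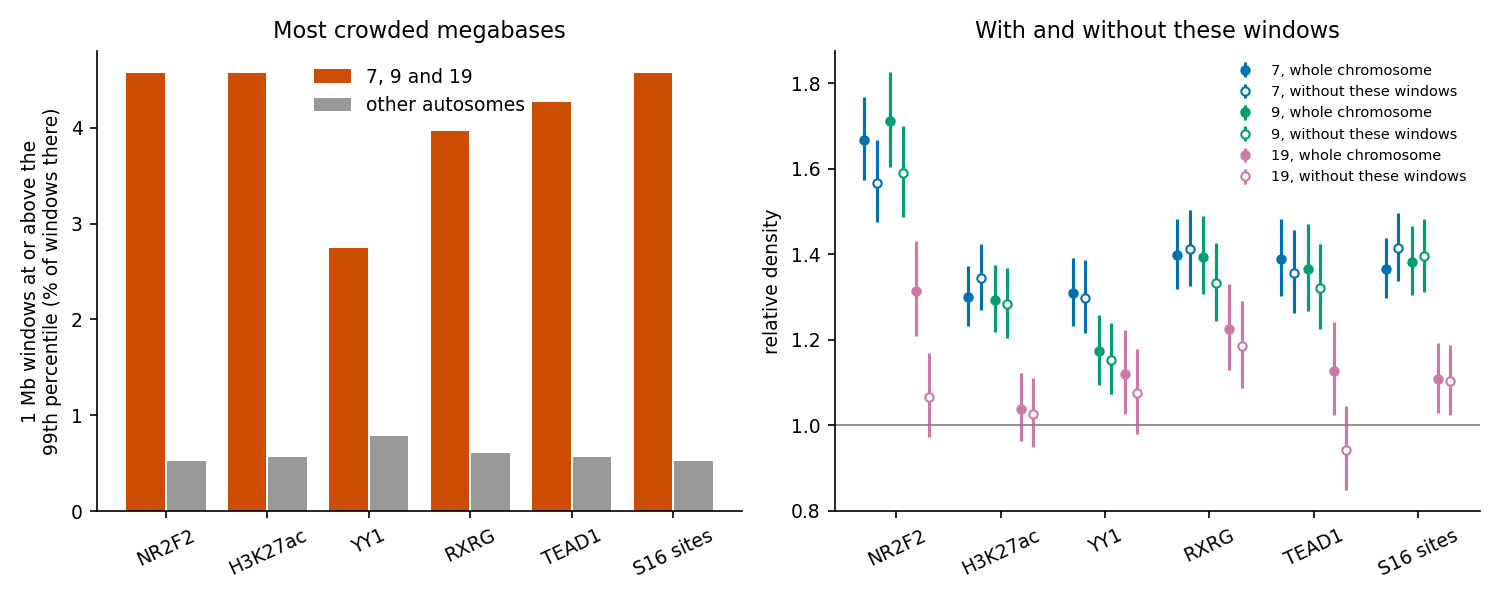
Left, share of 1 Mb windows at or above the 99th percentile of each list (vertical axis, percent of windows on chromosomes 7, 9 and 19 or on the other autosomes); right, relative density of chromosomes 7, 9 and 19 with (filled) and without (open) those windows, with 95% Clopper-Pearson intervals for counting error. NR2F2 on chromosome 19 drops to 1.07 without them, while chromosomes 7 and 9 stay at 1.57 and 1.59.

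Pooled over the 3 chromosomes, narrow peaks were the denser ones for YY1 and NR2F2, but not for H3K27ac or RXRG. Each list was divided by width into 4 classes of equal size over all autosomes. Pooled over chromosomes 7, 9 and 19, the narrowest class of YY1 stood at 1.42 (1.34 to 1.51) and the widest at 1.12 (1.05 to 1.19). The narrowest class of NR2F2 stood at 1.70 (1.61 to 1.79) and the widest at 1.48 (1.40 to 1.57). For TEAD1 the values were 1.44 and 1.26, with intervals that overlapped. Both classes are divided by the same SREBP1 count, so overlapping intervals do not show that they are alike. For H3K27ac they were 1.253 and 1.258 and for RXRG 1.35 and 1.40. Counted by list and chromosome, the narrowest class was above the widest in 12 of 15 pairs, with the exceptions of H3K27ac on chromosomes 7 and 19 and RXRG on chromosome 7. The intervals of the 2 classes were apart in only 2 of the 15 pairs, YY1 on chromosomes 9 and 19, and for NR2F2 they overlapped on each single chromosome.

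Excess here means the peaks beyond those expected if these chromosomes had the ratio of the other autosomes. The narrowest class held 46.9% of the YY1 excess, 33.8% for TEAD1, 28.8% for NR2F2, 26.3% for H3K27ac and 25.2% for RXRG. The widest class held 13.7% of the YY1 excess, 20.6% for TEAD1, 20.3% for NR2F2, 26.8% for H3K27ac and 27.9% for RXRG. On chromosome 9 YY1 stood at 1.50 in the narrowest class and 1.02 in the widest, so its wide peaks were at the level of the other autosomes. Median NR2F2 widths were 297 bp on chromosome 7, 294 bp on chromosome 9 and 300 bp on chromosome 19, against 305 bp on the other autosomes.

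**Figure D5:**
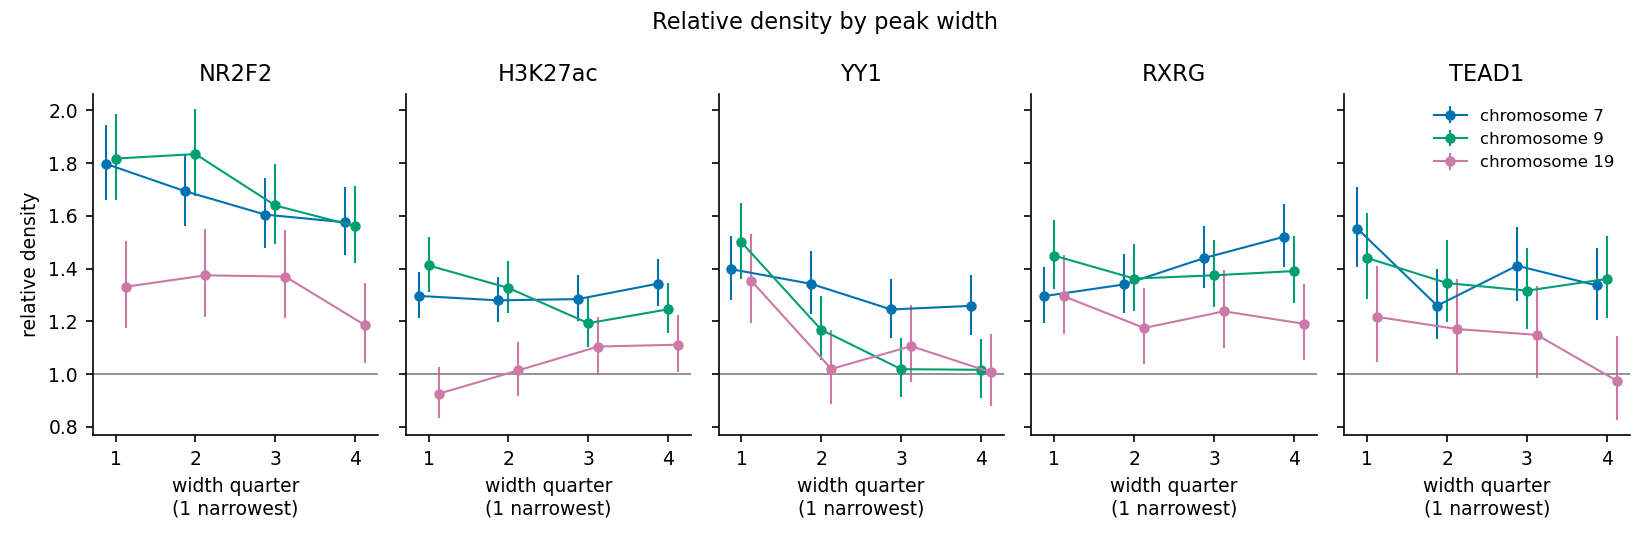
Relative density (vertical axis) of chromosomes 7, 9 and 19 in 4 equal width classes of each S16 list, from narrowest (1) to widest (4), with 95% Clopper-Pearson intervals for counting error. YY1 falls to 1.02 on chromosome 9 and 1.01 on chromosome 19 in its widest class, while H3K27ac and RXRG on chromosome 7 are highest in theirs.

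Isolated peaks had a lower relative density than the rest, an order that their definition favours. A peak was isolated when the nearest peak of its own list was over 50 kb away, which by construction becomes rarer where a list is denser. Pooled over the 3 chromosomes, isolated peaks stood at 0.805 for NR2F2, 0.769 for H3K27ac, 0.873 for YY1, 0.789 for RXRG and 0.940 for TEAD1. The remaining peaks stood at 1.80, 1.26, 1.28, 1.46 and 1.43 in the same order. In 15 of 15 list and chromosome pairs isolated peaks had the lower value, which cannot show where the excess lies because the definition favours it. The level depended on the cutoff. At 20 kb, isolated peaks pooled over the 3 chromosomes stood at 1.10 for NR2F2, 1.08 for TEAD1 and 1.01 for RXRG. For YY1 they stood at 0.968 and for H3K27ac at 0.841. Each of the 15 widest peaks, 1 per list and chromosome, overlapped peaks of at least 2 other lists. Examples are the 1708 bp NR2F2 peak at chr7:117150290-117151997, which overlapped peaks of the other 4 S16 lists, and the 7799 bp H3K27ac peak at chr9:37839259-37847057, which overlapped NR2F2, YY1 and TEAD1 peaks. Their length favours such overlap, and the widest peaks of the other autosomes were not compared. It is therefore not read as a trait of these chromosomes.

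For 3 factors relative density was higher among peaks that met no other S16 list. Peaks that did meet one held 62.2% of the excess for NR2F2, 81.2% for YY1 and 78.1% for TEAD1. That was less than their share of each list on the other autosomes, at 73.2%, 92.3% and 85.9%. NR2F2 peaks that met no other S16 list stood at 1.85 (1.76 to 1.95) on the 3 chromosomes pooled, and those that met another at 1.51 (1.45 to 1.58). For YY1 the values were 1.54 and 1.19, and for TEAD1 1.50 and 1.29. RXRG had the opposite order, 1.249 unshared and 1.464 shared, and H3K27ac 1.21 and 1.27 with overlapping intervals. The same was seen against H3K27ac alone: outside it NR2F2 stood at 1.87, YY1 at 1.59, TEAD1 at 1.56 and RXRG at 1.30, and inside it at 1.469, 1.166, 1.252 and 1.427. On chromosome 19 the shared and unshared intervals overlapped in every list. Here too both classes are divided by the same SREBP1 count, so overlapping intervals do not show that they are alike.

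Divided by how many lists met them, sites common to all 5 lists were densest. They stood at 1.58 on chromosome 7, 1.52 on chromosome 9 and 1.44 (1.24 to 1.67) on chromosome 19. Sites of a single list stood at 1.35, 1.41 and 1.11. On the 3 chromosomes pooled, sites of 3 lists were lowest at 1.19, against 1.53 for those of 5 lists. Sites of NR2F2 alone stood higher than either, at 1.85, and those of YY1 alone at 1.54.

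Nerve SREBP1 peaks offered fixed positions at which to ask how often S16 had a peak. On chromosomes 7, 9 and 19 together 2287 of 3904 SREBP1 peaks (58.6%, 57.0 to 60.1) overlapped an S16 site by at least 1 bp, against 54.97% (54.3 to 55.6) on the other autosomes. This measure is not free of the choice of chromosomes, since more peaks give more overlaps. NR2F2 met 22.0% of SREBP1 peaks on chromosome 7, 18.7% on chromosome 9 and 22.2% on chromosome 19, against 15.4% on the other autosomes. TEAD1 met 27.22%, 27.04% and 24.11%, against 21.7%, and on chromosomes 7 and 9 it exceeded every other autosome. RXRG met 12.6%, 10.3% and 13.9%, against 8.61%. H3K27ac met 57.6%, 48.9% and 51.7%, against 50.9%, and YY1 met 43.0%, 37.5% and 40.2%, against 38.2%. On chromosome 9 H3K27ac and YY1 therefore covered SREBP1 peaks about as often as elsewhere.

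Within H3K27ac the factors differed, though here too more peaks of a factor give more overlaps. NR2F2 lay in 29.3% of H3K27ac peaks on chromosome 7, 28.2% on chromosome 9 and 27.8% on chromosome 19, against 24.5% on the other autosomes. RXRG lay in 23.0%, 22.3% and 22.5%, against 19.9%, and all 3 values were above the 17.8% to 21.7% of the other autosomes taken singly. TEAD1 lay in 19.44%, 18.82% and 19.41%, against 19.05%. YY1 lay in 29.85%, 26.96% and 32.52%, against 31.20%, and its share on chromosome 9 was the lowest of 20 autosomes. Peaks that met no SREBP1 peak held 97.3% of the H3K27ac excess, 93.6% for RXRG, 92.8% for NR2F2, 91.4% for YY1 and 82.6% for TEAD1. Such peaks were the bulk of each list, at 84.5% of H3K27ac, 94.3% of RXRG, 87.9% of NR2F2, 69.8% of YY1 and 74.5% of TEAD1 peaks on the other autosomes.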

How the data were processed

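The deposited files are peak lists of 1 library per target, with chromosome, start and end. Per the submitters' processing notes, bcl2fastq 2.20.0.422, Bowtie2, MACS2, bedtools and deepTools and build rn5 were used; their roles and settings are not stated in any source used here. Peak callers and antibodies set how many peaks a list has, so lists were scaled to their own background. The deposited score of the SREBP1 list is 1 throughout and its peaks are 485 bp wide, so neither was used. Peaks were placed by midpoint; overlap was at least 1 bp. Calculations used Python 3.11.15, NumPy 2.4.6 and SciPy 1.17.1, and were tested on simulated peaks with known densities and steps. No test was run, since the chromosomes were chosen for these counts and bins and peaks are not replicates. Members and gene lists were chosen with earlier results of these data known. Bins at the extremes, the step positions and the widest peaks were named by rule; the 1 Mb windows were chosen after their values were seen.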

Additional observations from a re-analysis of the deposited data

Results flagged for a closer look

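Contigs assigned to chromosome 7 without a position lie outside the counts above. NR2F2 had 7 peaks there and H3K27ac had 11, on 5 and 6 contigs, while SREBP1 and the other 3 S16 lists had 0. They were noted because they are signal outside the main measurement. Whether the other lists were restricted to placed chromosomes was not tested.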

How the results depend on the processing

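No paired analysis was possible because every target was measured in 1 library. Of 97 alternative values for 12 results, 68 were labelled the same and 29 moved, of which 5 were steps that changed sign. Densities and shares were held to the main interval and counts to 1.5 times the main count. Step sizes have neither, and some labelled the same were larger. The chromosome 7 step was -0.45 in 2.5 Mb bins and -0.61 for RXRG alone, against -0.24 in the main setting. Sites on chromosome 7 stood at 1.47 per Mb, at 1.28 without autosomes 5, 8, 17 and 18 in the background, at 1.76 against those alone, and at 1.45 without the H3K27ac list. On chromosome 9 the values were 1.30 without the low autosomes, 1.78 against them alone, 1.30 for peaks wider than their list's median and 1.28 for covered length. On chromosome 19 they were 1.44 per Mb and 1.43 against the low autosomes alone. Dense bins numbered 24 of 63 (38.1%) in the main setting, against 15.0% over all autosomes. At the lower fold tried they numbered 37 of 63 (58.7%), against 27.9% over all autosomes. At 2-fold they numbered 7 of 63 (11.1%), against 3.59%. In 10 Mb bins, of which 35 were counted, 11 were dense (31.4%), against 12.5%. Of the 3 chromosomes, 3 had a step of at least 1.5-fold per Mb, 1 with segments of at least 2 bins, 3 for NR2F2 alone, 1 for YY1, 3 for RXRG and 1 for TEAD1. The step turned on chromosome 9 in 10 Mb bins (+0.51) and for H3K27ac alone (+0.50), on chromosome 7 per Mb (+0.86) and with segments of at least 2 bins (+0.39), and on chromosome 19 per Mb (+0.62). The SREBP1 share was 46.8% by midpoint (44.2% on the other autosomes), 67.3% with S16 peaks extended by 500 bp (63.7%) and 75.5% in the lower-numbered SREBP1 peaks (74.3%). The causes were not tested. With unknown depth and 1 library per target, no value carries replicate error.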
